A study of Mus musculus with 28 samples.

Results

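The 36 genes described here are mouse antiviral genes that type I interferon switches on. They were taken from a fixed list of symbols and matched through their Ensembl identifiers in the deposited expression files, where all 36 were found among 55487 gene identifiers. Their levels were measured by RNA sequencing in 28 libraries of wild-type mouse bone marrow-derived macrophages (BMDMs), which are macrophages grown in culture from bone marrow cells. The macrophages were kept for 48 h in non-polarizing medium (M0), with IFN-γ at 50 ng/mL or with IL-10 at 50 ng/mL. T cells made apoptotic with ATP or NAD+ and labelled with a fluorescent antibody against CD4 were offered to the macrophages, which were then sorted by uptake. Within each cytokine there were cells that had eaten regulatory T cells (Treg-phagocytic), cells that had eaten conventional CD4+ T lymphocytes (Tconv-phagocytic) and cells without either (non-phagocytic). Each of these 6 groups and the M0 group had 4 libraries. The labels of the M0 libraries name neither T cells nor an uptake status, so in any comparison with M0 the cytokine, the co-culture and the sort cannot be told apart. Nothing in the labels says that the 4 libraries of a group came from separate mice or cultures, so the tests measure the spread between these libraries, which may be technical. The labels give no strain, age or sex of the mice.

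Type I interferons bind a receptor made of IFNAR1 and IFNAR2, and the kinases JAK1 and TYK2 then activate STAT proteins, which join IRF9 to form the complex ISGF3. ISGF3 binds the interferon-stimulated response element (ISRE) in the promoters of antiviral genes. IFN-γ, the type II interferon, uses another receptor and acts mainly through the gamma-activated site (GAS), but it also raises many ISRE genes in macrophages, in which the antiviral genes are known to be strongly inducible. By role, the 36 genes fall into translation blockers that sense foreign RNA (Ifit1, Ifit2, Ifit3, Ifit3b and the kinase gene Eif2ak2), the 2'-5' oligoadenylate synthetase family with the RNase gene Isg20 (7 genes), the Mx GTPases with viperin (Rsad2) and its neighbour Cmpk2 (4 genes), and the ubiquitin-like modifier ISG15 with its protease Usp18 and its ligase Herc6 (3 genes). The others are sensors of viral RNA and DNA (Ddx58, Ifih1, Dhx58, Zbp1, Ifi204 and Ifi205), the ADP-ribosylation partners Parp9, Parp14 and Dtx3l, and 8 further effectors such as tetherin (Bst2).

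Promoter sequences are shown for some of the members with an ISRE core before the start of the gene, because the ISRE is the element through which this programme is read. RefSeq promoters of the build GRCm38.p6, from 250 bases before to 50 bases after the start, had an entry for 25 of the 36 members. In these windows the ISRE core, GAAA then any 2 bases then GAAA, read on both strands so that it also appears as TTTC, 2 bases and TTTC, was found in 14 of the 25, against 3.99% of 27025 genes with an entry. The letters of the GAS core TTCNNNGAA, which reads the same on the other strand, were found in 6 of the 25, against 9.55% of genes. In the sequences, written 5′ to 3′ on the strand of the gene, capitals mark each match of the ISRE core on either strand, joined where matches overlap.
Ifit1 (chr19:34640760-34640838, plus strand): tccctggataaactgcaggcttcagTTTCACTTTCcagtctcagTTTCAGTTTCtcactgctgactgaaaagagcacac
Ifit3 (chr19:34583348-34583441, plus strand): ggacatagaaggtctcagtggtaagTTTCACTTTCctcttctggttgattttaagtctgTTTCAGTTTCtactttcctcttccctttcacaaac
Oas1a (chr5:120907526-120907570, minus strand): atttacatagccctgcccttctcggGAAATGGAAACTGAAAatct
Oas1g (chr5:120887614-120887656, minus strand): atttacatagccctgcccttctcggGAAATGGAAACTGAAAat
Oas3 (chr5:120777700-120777759, minus strand): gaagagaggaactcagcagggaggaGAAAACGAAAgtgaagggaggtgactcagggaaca
Rsad2 (chr12:26456538-26456597, minus strand): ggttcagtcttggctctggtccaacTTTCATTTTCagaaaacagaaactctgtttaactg
Isg15 (chr4:156200850-156200921, minus strand): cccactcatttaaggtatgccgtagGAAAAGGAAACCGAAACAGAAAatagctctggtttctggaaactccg
Bst2 (chr8:71537562-71537627, minus strand): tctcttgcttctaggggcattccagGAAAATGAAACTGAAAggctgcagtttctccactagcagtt
Ifit1 and Ifit3 carried 2 separate matches, with the first at 104 and 156 bases before the start. In Oas1a and Oas1g the matches overlapped and began 20 and 18 bases before the start, and the sequences shown were the same at 43 of 43 shared positions. Isg15 carried 3 overlapping matches from 78 bases before its start, Bst2 carried 2 from 130 bases, and Oas3 and Rsad2 carried 1 each, at 75 and 120 bases. Not shown are Ifit3b, Ifi205 and Trim30a, with first matches at 188, 134 and 36 bases before the start. In Eif2ak2, Ddx58 and Ifih1, also not shown, the match lay after the start. The genes lie on 14 chromosomes, with 6 members on chromosome 5 (all of the oligoadenylate synthetase family), 6 on chromosome 16 (Mx1, Mx2, Parp9, Parp14, Dtx3l and Rtp4) and 4 on chromosome 19 (the Ifit genes).

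Levels are given as deposited, in TPM, in which reads are divided by transcript length and every library has the same sum, so that values can be set beside each other between genes. Bst2, a membrane protein that holds budding virions at the cell surface, was the most abundant of the genes described below and reached a mean of 789 ± 48.2 TPM (SD, n = 4) in IFN-γ non-phagocytic macrophages. Ifi27l2a, a small mitochondrial protein induced by interferon, followed with 574 ± 32.6 TPM (SD, n = 4). Ifit1, one of the best known interferon-stimulated genes, stayed at 5.10 TPM or less in every library of the study. Summed over the 36 members, the level was 890.3 to 1032 TPM in the 4 M0 libraries, 2073 to 2237 TPM in IFN-γ non-phagocytic, 2042 to 2230 TPM in IFN-γ Tconv-phagocytic and 1856 to 2028 TPM in IFN-γ Treg-phagocytic libraries. In the IL-10 groups the sum was 915.3 to 951.7 TPM in non-phagocytic, 947.2 to 1005 TPM in Tconv-phagocytic and 959.4 to 1040 TPM in Treg-phagocytic libraries. Every IFN-γ library was thus above every M0 and IL-10 library. By group mean, 11 members were highest in IFN-γ non-phagocytic, 16 in IFN-γ Tconv-phagocytic and 7 in IFN-γ Treg-phagocytic macrophages, and the other two were highest in IL-10 Tconv-phagocytic macrophages. The lowest mean fell in IL-10 non-phagocytic macrophages for 15 members and in M0 for 10.

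**Figure D1:**
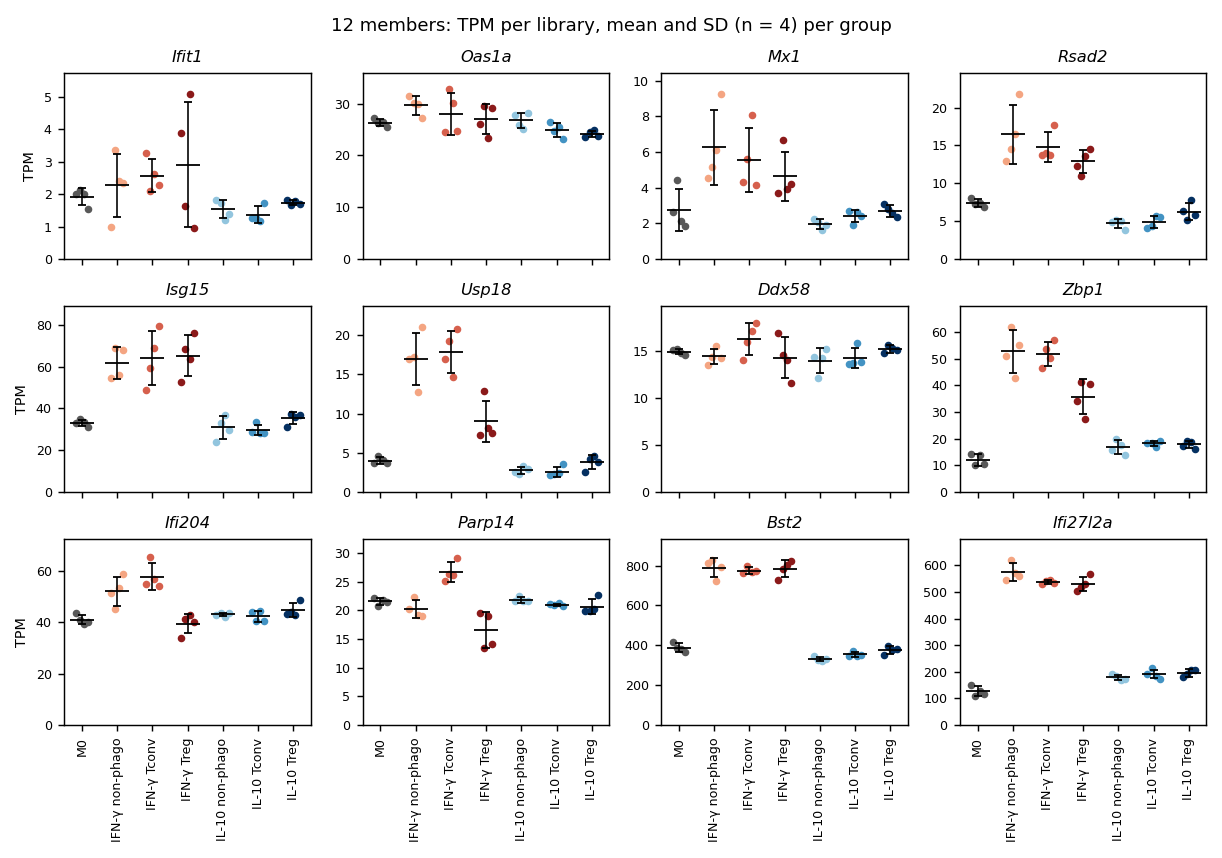
Levels of 12 members in the 7 groups, as deposited TPM on linear axes that start at 0, with 1 point per library and a line and bar for the mean and SD (n = 4). Zbp1, Bst2 and Ifi27l2a sit far above M0 in all 3 IFN-γ groups, Usp18 and Parp14 drop in the IFN-γ Treg-phagocytic group, and the points of Oas1a, Ddx58 and Ifit1 overlap between most groups.

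The other facts of the series that touch these genes are few. The number of genes above 0 was 14148 to 16295 in the IFN-γ libraries and 16942 to 18457 in the others, and the total count behind the TPM is unknown. On the log2 scale of the tests, the median SD of well-expressed genes between the 4 libraries was 0.18 to 0.216 in the IFN-γ groups. It was 0.082 to 0.095 in M0 and the IL-10 groups. Fits that join IFN-γ groups with these used 1 variance per gene for all the groups fitted. All 8 macrophage marker genes reached 1 TPM in all groups, with a summed level of 20778 to 21299 TPM in the IFN-γ Treg-phagocytic libraries and 16527 to 20691 TPM in the other groups. Transcripts of 16 T cell marker genes were present in every group, none of them at 0 throughout a group, with sums of 210.3 to 311.4 TPM in M0, 576.1 to 1031 TPM in the IFN-γ libraries and 182.3 to 322.0 TPM in the IL-10 libraries. Markers of plasmacytoid dendritic cells, the cells known for making the most type I interferon, summed to 164.3 to 170.7 TPM in M0, to 91.62 to 122.5 TPM in the IFN-γ groups and to 177.5 to 226.4 TPM in the IL-10 groups, with Klk1 at 0 in every library and Siglech at 0 in all libraries of M0, of IFN-γ non-phagocytic and of IL-10 Treg-phagocytic cells. Only 3 of these 8 markers reached 1 TPM in any M0 library, 5 or 6 in each IFN-γ group and 3 or 4 in each IL-10 group. The sums thus rest on part of the list and do not show that such cells were present. Markers of stromal cells summed to 116.0 to 135.0 TPM in M0, 3.09 to 11.45 TPM in the IFN-γ libraries and 28.4 to 163.6 TPM in the IL-10 libraries, with the IL-10 Treg-phagocytic libraries lowest at up to 32.3 TPM. Neutrophil markers summed to 62.6 to 123.2 TPM, with Ly6g at 0 in all 3 IFN-γ groups, and B cell markers to 9.12 to 25.6 TPM. The part of these cells in the results was not tested. In these bulk libraries, fewer cells of a type and less RNA per cell cannot be told apart.

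Most of the antiviral genes were higher with IFN-γ. Between non-phagocytic IFN-γ macrophages and M0, 30 of the 36 members were higher, 1 was lower and 5 did not pass limma's moderated test at a Benjamini-Hochberg adjusted p under 0.05, while 57.3% of 12068 genes tested passed it (27.7% higher and 29.6% lower). The fits take genes of at least 1 TPM in 4 of the libraries compared. Ifit3b and Ifi205, counted among the 30, passed this filter only through the IFN-γ libraries, which favours a call as higher. Fold changes are differences of log2(scaled TPM + 1), where each library's TPM is divided by a factor that centres the bulk of its genes, and they understate the change of genes near or below 1 TPM. The median member was 1.16 higher on the log2 scale, and the median of all genes was -0.05. All 4 IFN-γ libraries lay above all 4 M0 libraries for 31 members and below them for 1, as scaled TPM. Such separation in either direction held for 54% of all genes.

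The largest rise was that of Ifi27l2a (chr12:103442167-103443680, minus strand). It was at 152, 111, 128 and 116 TPM in M0 and at 546, 621, 572 and 559 TPM with IFN-γ, a difference of 2.45 (SE 0.09, adjusted p = 4.09e-08) or 5.48-fold. Zbp1, a sensor of left-handed nucleic acids that can start cell death, lies at chr2:173206612-173218923 on the minus strand. Its TPM were 14.3, 9.99, 13.9 and 10.3 in M0 and 51.1, 62, 42.95 and 55.1 with IFN-γ, and it rose 4.91-fold (log2 difference 2.30, SE 0.15, adjusted p = 1.37e-06). Ifi205, of the PYHIN family of DNA-binding proteins, was nearly silent in M0, at 0.18, 0.18, 0.48 and 0 TPM, and reached 2.59, 4.49, 2.98 and 5.02 TPM. Its log2 difference was 2.09 (SE 0.22, adjusted p = 3.55e-05), but it passed the filter on low values only through the libraries where it was high. Its call is thus no separate support, and its M0 values leave the size of the fold uncertain. The M0 and IFN-γ libraries did not overlap for any of these 3 genes.

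Among the ISG15 system, all 3 members rose. Usp18, the protease that removes ISG15 and also dampens the type I interferon receptor, was at 3.71, 4.53, 4.11 and 3.7 TPM in M0 and at 16.97, 17.2, 12.8 and 21 TPM with IFN-γ, a rise of 4.18-fold (adjusted p = 4.03e-06). Isg15 itself went from 32.8, 34.96, 33.5 and 31.2 TPM to 54.5, 68.9, 56.2 and 67.97 TPM, with a log2 difference of 1.14 (SE 0.09, adjusted p = 5.78e-06). Herc6, the main ISG15 ligase in the mouse, rose 2.98-fold. For Usp18 and Isg15 the lowest IFN-γ library was above the highest M0 library.

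Of the translation blockers, Ifit2, Ifit3 and Ifit3b rose, while Ifit1 and Eif2ak2 did not pass the test. Ifit3 had 14.4, 10.3, 12.3 and 10.7 TPM in M0 and 32.9, 34.7, 37.3 and 32.9 TPM with IFN-γ, and rose 3.31-fold; Ifit2 rose 3.35-fold. Ifit1, which lies beside them on chromosome 19 and binds viral RNA that lacks cap methylation, was at 2.02, 2.13, 2.02 and 1.53 TPM in M0 and 0.99, 3.35, 2.4 and 2.34 TPM with IFN-γ. Its groups overlapped and its log2 difference was 0.29 (SE 0.24, adjusted p = 0.327), with a 95% interval of -0.25 to 0.83. Ifit1 and Ifit3 both carry 2 ISRE matches in the sequences above. Eif2ak2, the kinase PKR, had a difference of -0.22 (adjusted p = 0.193).

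All 7 genes of the oligoadenylate synthetase group, a family whose enzymatically active members make the messenger that activates RNase L, with the RNase gene Isg20, rose by differing amounts. Oas3 went from 17.7, 16.7, 15.1 and 15.2 TPM to 32.02, 31.4, 27.5 and 38.7 TPM, a 2.32-fold rise, and Oasl1 had a log2 difference of 1.19 (SE 0.30). Oas1a moved least but for Isg20, from 27.2, 26.3, 26.4 and 25.4 TPM to 31.5, 30.1, 29.9 and 27.1 TPM with a log2 difference of 0.43 (SE 0.07, adjusted p = 0.000521). As deposited, its lowest IFN-γ library was inside the M0 range. Without the scaling factor the calls of Oas1a and Isg20 were lost (adjusted p = 0.0609 and 0.172).

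Mx1, a GTPase that traps viral nucleoproteins, was at 2.64, 4.44, 2.13 and 1.83 TPM in M0 and at 4.54, 5.16, 6.1 and 9.27 TPM with IFN-γ, and rose 2.25-fold (adjusted p = 0.00315). Rsad2, or viperin, which makes a chain-terminating nucleotide, rose 2.42-fold, from 8.11, 7.32, 7.4 and 6.87 TPM to 12.98, 14.5, 16.6 and 21.8 TPM. All 4 IFN-γ libraries were above M0 for both genes. Cmpk2, the nucleotide kinase gene beside Rsad2, had 2.36, 2.39, 3.97 and 1.93 TPM and 1.61, 2.32, 2.77 and 1.53 TPM and the smallest difference of the uncalled members, -0.06 (adjusted p = 0.812). Mx2 had a difference of 0.43 (adjusted p = 0.0833).

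The sensors divided. Dhx58 (LGP2), a helicase that modulates the other RIG-I-like receptors, rose 3.14-fold, from 18.8, 17.9, 19.3 and 15.2 TPM to 46.1, 45.5, 51.9 and 49.01 TPM. Ifi204, a DNA sensor, rose 1.51-fold, from 43.8, 40.8, 39.4 and 40.3 TPM to 51.6, 45.01, 53.2 and 58.8 TPM. Ifih1 (MDA5), the receptor for long double-stranded RNA, was the member that fell. It had 13.6, 14.9, 16.4 and 16.2 TPM in M0 and 8.84, 9.01, 9.04 and 10.6 TPM with IFN-γ, without overlap, and fell 1.32-fold (log2 difference -0.40, SE 0.11, adjusted p = 0.00938). Ddx58 (RIG-I), the receptor for RNA with a 5' triphosphate, was at 15.1, 15.3, 14.8 and 14.6 TPM and 13.6, 14.4, 15.5 and 14.2 TPM. Its small difference of 0.21 (SE 0.08, adjusted p = 0.0483) counted among the 30 rises, but it turned to -0.05 (adjusted p = 0.623) without the scaling factor. The Ddx58 call was also lost without any 1 of the 4 M0 libraries (adjusted p = 0.0997, 0.0954, 0.117 and 0.115 for libraries 1 to 4) and without IFN-γ library 2, 3 or 4 (0.0583, 0.0753 and 0.0617).

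Parp9 and Dtx3l, which act as a complex on interferon signalling, rose by 0.70 (SE 0.11) and 1.03 (SE 0.09) on the log2 scale. Parp14, another ADP-ribosyltransferase, was at 22.1, 20.8, 21.9 and 21.4 TPM in M0 and 20.3, 22.3, 19.2 and 18.99 TPM with IFN-γ, and its difference of 0.17 (adjusted p = 0.0943) did not pass the test and was -0.09 without the scaling factor. All 8 further effectors rose. Bst2 went from 417, 385, 383 and 364 TPM to 813, 829.8, 720.2 and 793 TPM, a 2.45-fold rise (log2 difference 1.29, SE 0.06, adjusted p = 1.24e-07). Ifi44 and Ifi35, both of which are known to restrict or modulate antiviral signalling, had log2 differences of 2.03 (SE 0.18) and 1.67 (SE 0.06). Of the 14 members with an ISRE match, 11 rose and 1 fell, and of the 11 with a promoter entry and no match 10 rose.

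The T cell marker sum was higher in the IFN-γ non-phagocytic libraries (576.1 to 940.0 TPM) than in M0, and 14 of the 16 T cell markers were called higher and 1 lower. Its part in these differences was not tested. Trim30a lost its call after the correction for GC content and transcript length (adjusted p = 0.199). Without any scaling factor 27 members were higher and 2 lower, the median of all genes moved to -0.29, and the share of higher among all called genes went from 48.4% to 29.8%.

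**Figure D2:**
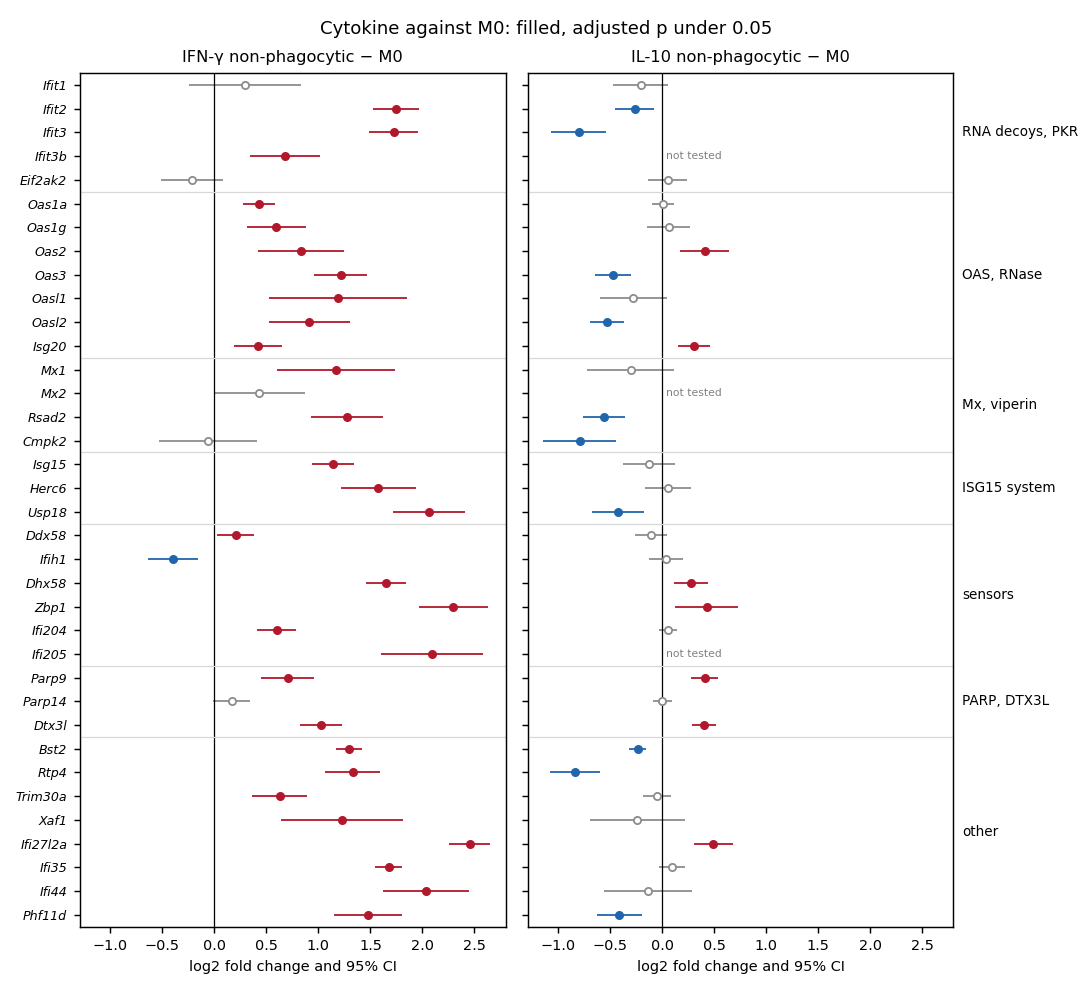
Log2 differences of the 36 members between non-phagocytic macrophages and M0, for IFN-γ and for IL-10, as points with 95% confidence intervals (4 libraries against 4). Filled points have a limma adjusted p under 0.05, red for higher and blue for lower; with IFN-γ 30 members are filled red, and with IL-10 the filled points divide into 7 red and 10 blue.

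With IL-10 the antiviral genes moved less and in both directions. Of the 33 members that passed the filter on low values (Ifit3b, Mx2 and Ifi205 did not), 7 were higher and 10 lower in non-phagocytic IL-10 macrophages than in M0, and 30.7% of 11883 genes were called (15.9% higher and 14.8% lower). The members' median was -0.11, against 0 for all genes. The 4 libraries of each group were fully separated for 6 members above and 10 below M0, as they were for 32.3% of all genes in either direction.

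The genes that fell most were Rtp4, a chaperone of membrane receptors that binds viral RNA, Ifit3 and Cmpk2. Rtp4 had 24.3, 21.7, 18.8 and 17.1 TPM in M0 and 11.2, 9.94, 12.5 and 10.5 TPM with IL-10, and fell 1.79-fold (log2 difference -0.84, SE 0.10, adjusted p = 0.000222). Ifit3 had 6.86, 5.39, 7.46 and 5.97 TPM with IL-10, all below the lowest M0 value of 10.3 TPM, and fell 1.74-fold (adjusted p = 0.000621). Cmpk2 had 1.04, 1.12, 1.12 and 0.9 TPM and fell 1.73-fold (adjusted p = 0.00378). Its neighbour Rsad2 was at 4.93, 5.13, 5.08 and 3.87 TPM and fell by 0.56 on the log2 scale (adjusted p = 0.00116). Oasl2, Oas3, Usp18, Phf11d, Ifit2 and Bst2 were the other members that fell, with Usp18 at -0.42 (adjusted p = 0.017) and Bst2 at -0.23 (adjusted p = 0.00106).

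Ifi27l2a had the largest rise with IL-10, from the M0 values above to 190.2, 182, 169.5 and 173 TPM, or 1.41-fold (log2 difference 0.49, SE 0.08, adjusted p = 0.00157). Zbp1 reached 15.8, 20.1, 17.6 and 13.9 TPM and rose 1.35-fold (adjusted p = 0.0381), with 1 IL-10 library, at 13.9 TPM, inside the M0 range. Oas2 rose 1.33-fold, and Parp9 and Dtx3l rose by 0.41 and 0.40 on the log2 scale. Isg20 and Dhx58 were the remaining rises. Among the members that did not pass, Parp14 had the smallest difference, 0.002 (SE 0.04), followed by Oas1a with 0.01 (SE 0.05). Ifi204, Ddx58, Isg15, Ifit1 and Mx1 had differences of 0.05, -0.11, -0.12, -0.21 and -0.30.

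The calls of Ifit2 and Zbp1 with IL-10 were each lost in 5 of 8 leave-one-out fits. For Ifit2 the adjusted p was 0.085 and 0.0843 without M0 library 1 or 2, and 0.0723, 0.0702 and 0.0847 without IL-10 library 1, 2 or 4. For Zbp1 it was 0.0977 and 0.0975 without M0 library 2 or 4, and 0.0545, 0.0955 and 0.088 without IL-10 library 1, 2 or 3. Usp18 lost its call without M0 library 2 (adjusted p = 0.0519).

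Set against each other, the IFN-γ and IL-10 non-phagocytic macrophages differed for 30 of the 36 members, with 29 higher and 1 lower with IFN-γ, and 55.1% of 12089 genes were called (26.9% higher and 28.2% lower). These 2 groups carry the same uptake label, unlike M0. Ifit3b, Mx2 and Ifi205, called higher, passed the filter on low values only through the IFN-γ libraries. Ifit3 differed most, with the values given above, at 5.75-fold (log2 difference 2.52, SE 0.11, adjusted p = 8.02e-08). Usp18 was 5.6-fold and Ifi44 4.49-fold higher with IFN-γ. Zbp1, Ifi27l2a, Bst2, Rsad2, Isg15 and Mx1 were higher by 1.87, 1.96, 1.53, 1.83, 1.27 and 1.47 on the log2 scale, and Ifi204, Oas1a and Ddx58 by 0.54, 0.42 and 0.31. Ifih1 was lower with IFN-γ, at -0.43 (SE 0.10, adjusted p = 0.00438). Ifit1 and Parp14 did not pass, at 0.50 (adjusted p = 0.113) and 0.17 (adjusted p = 0.1), and Isg20 had the smallest uncalled difference, 0.11. The call of Ddx58 was lost without IL-10 library 2 (adjusted p = 0.0638), and with no scaling factor (0.701). It was also lost after the correction for GC content and transcript length (0.221), with scaling over all genes above 0 (0.0665) and with a replicate block (0.0539). Oas1a and Oas1g lost their calls with no scaling factor (0.119 and 0.0683), and Trim30a after the GC and length correction (0.12). Without scaling 26 members were higher and 2 lower, the median of all genes was -0.30 and the higher share of called genes went from 48.8% to 28.6%.

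The next comparison asks whether the kind of T cell that was eaten went with a different antiviral programme. In all comparisons by uptake the macrophages were sorted, so differences present before uptake and those that followed it cannot be told apart. Under IFN-γ, 9 of the 36 members were lower and 1 was higher in Treg-phagocytic than in Tconv-phagocytic macrophages, and 13.7% of 11980 genes were called (4.68% higher and 9.02% lower). The median member was at -0.22 and the median gene at 0.03. All 4 Treg-phagocytic libraries lay below all 4 Tconv-phagocytic libraries for 12 members and above them for 1, and 19.9% of all genes were separated in either direction. The values of each library follow in the order BV421-1, BV421-2, Ax647-1 and Ax647-2 for Tconv-phagocytic and Ax647-1, Ax647-2, BV421-1 and BV421-2 for Treg-phagocytic macrophages, which are the dyes of the CD4 antibody given in the titles.

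Herc6 (chr6:57581000-57664632, plus strand) differed most. It was at 18.7, 27.3, 22.6 and 30.9 TPM after uptake of Tconv and at 8.59, 8.38, 9.87 and 7 TPM after uptake of Treg cells, without overlap, and fell 2.57-fold (log2 difference -1.36, SE 0.17, adjusted p = 0.000945). The M0 level of Herc6 was 8.29 ± 0.73 TPM (SD, n = 4), as deposited. As mean log2(scaled TPM + 1), Herc6 was at 3.394 in IFN-γ Treg-phagocytic macrophages and 3.096 in M0. Dhx58 (chr11:100694884-100704271, minus strand) was at 44.4, 62.7, 56.4 and 55.7 TPM and 22.01, 20.7, 20 and 23.9 TPM, and fell 2.31-fold (log2 difference -1.21, SE 0.12, adjusted p = 0.000335). Its M0 level was 17.8 ± 1.83 TPM (SD, n = 4), as deposited. On the scaled log2 measure, Dhx58 was at 4.67 in IFN-γ Treg-phagocytic macrophages and 4.102 in M0.

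Usp18 (chr6:121245906-121270917, plus strand), the other member of the ISG15 system that fell, had 17.02, 19.2, 14.7 and 20.8 TPM after Tconv and 7.33, 12.9, 8.22 and 7.58 TPM after Treg uptake, a 1.81-fold fall (adjusted p = 0.0191). Isg15 itself was at 48.9, 59.2, 68.7 and 79.5 TPM and 52.5, 68.2, 63.8 and 75.98 TPM, with overlapping groups, and its difference of 0.12 (SE 0.16, adjusted p = 0.671) had a 95% interval of -0.24 to 0.48. Oas3 was the member of the oligoadenylate synthetase group that fell, from 33.8, 41.3, 42.9 and 34.6 TPM to 20.4, 19.4, 19.3 and 20.6 TPM (1.75-fold, adjusted p = 0.00127). Oas1a, at 24.6, 32.7, 30.02 and 24.6 TPM and 26.04, 29.6, 23.4 and 29.2 TPM, had the smallest uncalled difference of all members, 0.05 (SE 0.13).

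Of the ADP-ribosylation partners, Dtx3l fell 1.76-fold, from 25.5, 27.1, 27.3 and 28.1 TPM to 15.8, 13.1, 12.9 and 14.3 TPM (adjusted p = 0.00127), and Parp14 fell 1.5-fold, from 25.1, 26.3, 26.1 and 29.2 TPM to 19.6, 13.4, 18.9 and 14.2 TPM (adjusted p = 0.0174). In both genes the groups did not overlap. Parp9, which shares a locus with Dtx3l, had a difference of -0.22 (adjusted p = 0.369). Of the further effectors, Ifi35 went from 61.5, 88.99, 70.9 and 76.5 TPM to 41.8, 46.3, 39.1 and 35.8 TPM (1.69-fold lower, adjusted p = 0.00311), and Trim30a fell 1.53-fold. Rtp4 was the 1 member that rose, from 35.2, 36.3, 32.6 and 34.01 TPM to 56.8, 45.03, 48.1 and 36.04 TPM (1.41-fold, adjusted p = 0.0233).

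The DNA sensor Ifi204 fell 1.36-fold, from 54.8, 65.4, 56.9 and 54.1 TPM to 33.98, 41.3, 42.7 and 40.2 TPM (adjusted p = 0.0218). Zbp1, at 46.4, 53.5, 50.3 and 57.2 TPM and 34.2, 41.4, 27.3 and 40.4 TPM, had no overlap between the groups but a difference of -0.44 (adjusted p = 0.0693). Neither the 5 translation blockers nor the 4 genes of the Mx and viperin group passed the test. Their differences included 0.05 for Ifit1, -0.13 for Mx1 and -0.10 for Rsad2. Mx2 had the largest uncalled difference, -1.16 (adjusted p = 0.0602), with 1.68, 7.2, 2.16 and 2.51 TPM after Tconv uptake, of which the second stood far above the others, and 0.72, 0.78, 0.48 and 1.06 TPM after Treg uptake. Ddx58, Bst2 and Ifi27l2a, with differences of -0.10, 0.11 and 0.07, did not pass.

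Of the 30 members that rose with IFN-γ over M0, 8 fell in this comparison, a share close to that of all members (9 of 36). The other member that fell was Parp14. The same share among all genes that rose with IFN-γ is not given here. Of the 10 members with the largest IFN-γ rises, Usp18, Ifi35, Dhx58 and Herc6 fell, and Ifi27l2a, Zbp1, Ifi205, Ifi44, Ifit2 and Ifit3 did not pass.

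Within 1 dye by title, with 2 libraries against 2, Herc6 differed by -1.26 (BV421) and -1.45 (Ax647), Dhx58 by -1.15 and -1.26, Usp18 by -1.02 and -0.70, and Oas3 by -0.79 and -0.83. The library names give the other dye for the Treg-phagocytic libraries, and by them these fits set different dyes against each other. Only Dhx58 with Ax647 kept a call at that size (adjusted p = 0.0462). The T cell marker sums were 686.9 to 860.5 TPM in the Tconv-phagocytic and 642.7 to 1031 TPM in the Treg-phagocytic libraries, with 2 of 16 T cell markers and 0 of 6 Treg markers called higher, and their part was not tested. The macrophage marker sums were 16527 to 18860 TPM in the Tconv-phagocytic and 20778 to 21299 TPM in the Treg-phagocytic libraries, with 4 of 8 markers called higher and 1 lower, and their part was not tested. Usp18 lost its call without the Tconv library BV421-2 or Ax647-2 (adjusted p = 0.0619 and 0.061), Ifi204 without BV421-2 or Ax647-1 (0.0692 and 0.0537) and Parp14 without Ax647-2 (0.0578). Rtp4 lost its call without the Tconv library BV421-2, Ax647-1 or Ax647-2 (0.0531, 0.0719 and 0.063) or the Treg library Ax647-1 or BV421-1 (0.0514 and 0.0566), and also with no scaling factor (0.072) or a variance weight per group (0.069). After a correction for GC content and transcript length, Ifi204 no longer passed, at -0.30 (adjusted p = 0.0964). The share of higher among all called genes was 34.2%, and it was 16.8% with no scaling and 48.9% with scaling over all genes above 0.

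**Figure D3:**
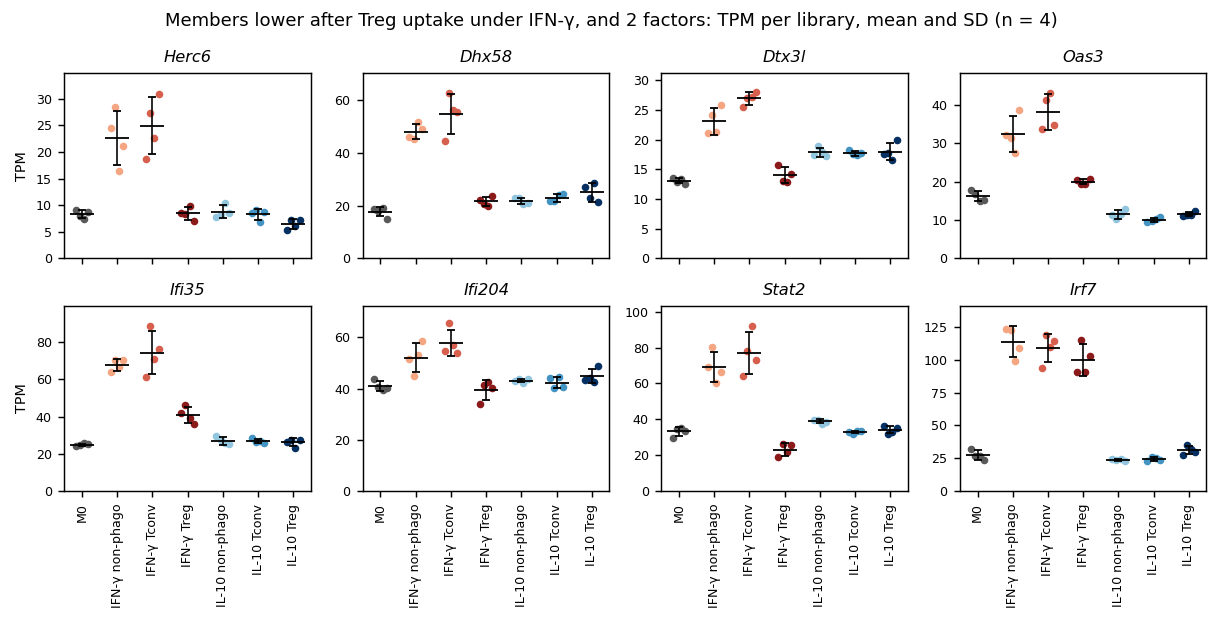
Levels of Herc6, Dhx58, Dtx3l, Oas3, Ifi35 and Ifi204 and of the transcription factor genes Stat2 and Irf7 in the 7 groups, as deposited TPM on linear axes from 0, with 1 point per library and the mean and SD (n = 4). In the first 7 genes the IFN-γ Treg-phagocytic libraries lie below the libraries of both other IFN-γ groups, and the Irf7 points of all 3 IFN-γ groups lie above those of M0.

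Against the IFN-γ macrophages that took up no T cells, the Treg-phagocytic macrophages had 6 members lower and none higher, and 8.86% of 11891 genes were called (2.3% higher and 6.57% lower). Herc6, at 24.5, 28.5, 16.4 and 21.1 TPM in the non-phagocytic libraries, fell 2.42-fold (log2 difference -1.28, SE 0.18, adjusted p = 0.00235) and Dhx58 fell 2.12-fold (adjusted p = 0.000303). Usp18, Ifi35, Dtx3l and Oas3 fell by 0.83, 0.69, 0.65 and 0.63 on the log2 scale (adjusted p = 0.0417, 0.00175, 0.0107 and 0.0121). The median member was at -0.24, against 0.02 for all genes, and 9 members had all Treg-phagocytic libraries below all non-phagocytic ones (16% of genes were separated in either direction). Zbp1, Parp14, Ifi204, Mx1 and Rsad2 did not pass, at -0.52, -0.25, -0.35, -0.33 and -0.28, nor did Isg15, Ifit1, Oas1a, Ddx58, Bst2 and Ifi27l2a, at 0.11, 0.19, -0.09, 0.01, 0.03 and -0.08. Ifit3b had the smallest uncalled difference, -0.003 (adjusted p = 0.997). Usp18 lost its call without IFN-γ non-phagocytic library 1, 2 or 4 (adjusted p = 0.0981, 0.0995 and 0.12) or Treg library Ax647-1, BV421-1 or BV421-2 (0.0978, 0.0956 and 0.0911). The macrophage marker sum was 17135 to 17860 TPM in the non-phagocytic libraries, 4 of 8 markers were called higher and 1 lower in the Treg-phagocytic ones, and their part was not tested. The higher share of called genes was 25.9%, and 37.8% and 43.9% with median-of-ratios scaling and with scaling over all genes above 0.

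Tconv-phagocytic and non-phagocytic IFN-γ macrophages had no called difference in any of the 36 members by limma, or in any of 12134 genes (0%). At an unadjusted p under 0.05 there were 4 members and 778 genes, and the smallest adjusted p among members was 0.555, for Rtp4 at -0.38 (SE 0.10). Parp14 had a difference of 0.33 and passed (adjusted p = 0.0438) when all 28 libraries shared 1 model. Herc6 and Dhx58 differed by 0.08 and 0.12, with 95% intervals of -0.34 to 0.51 and -0.10 to 0.35. Ifi44 had the smallest difference, 0.00 (SE 0.24). Usp18, Zbp1, Bst2, Ifi27l2a, Isg15 and Oas1a differed by 0.03, -0.07, -0.08, -0.15, -0.02 and -0.14, and Ifit1, Mx1, Rsad2, Ddx58 and Ifi204 by 0.14, -0.20, -0.18, 0.11 and 0.09.

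Under IL-10 the same uptake comparison gave no call among the 32 members tested by limma, where 1.71% of 11870 genes were called (0.657% higher and 1.05% lower). Ifit3b, Mx2, Ifi205 and Ifi44 did not pass the filter on low values. At an unadjusted p under 0.05 there were 10 members and 1706 genes. Herc6 was at 8.5, 9.19, 6.87 and 8.68 TPM after Tconv and 5.34, 7.2, 6.01 and 7.2 TPM after Treg uptake, with overlap and a difference of -0.33 (adjusted p = 0.22). Usp18 had the largest difference, in the other direction from IFN-γ, at 0.39 (adjusted p = 0.32), with 2.15, 2.32, 2.39 and 3.52 TPM and 2.51, 4.15, 4.6 and 3.81 TPM. Isg15 had the smallest adjusted p, at 0.24 (SE 0.07, adjusted p = 0.144). Dhx58 and Oas3 differed by 0.11 and 0.18, and Oas2 had the smallest difference, -0.01. None of the other uncalled examples went beyond Rsad2 at 0.28, with Ifit1 at 0.21, Oas1a at -0.05, Mx1 at 0.12, Ddx58 at 0.09, Zbp1 at -0.04, Ifi204 at 0.07, Parp14 at -0.02, Bst2 at 0.08 and Ifi27l2a at 0.03.

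**Figure D4:**
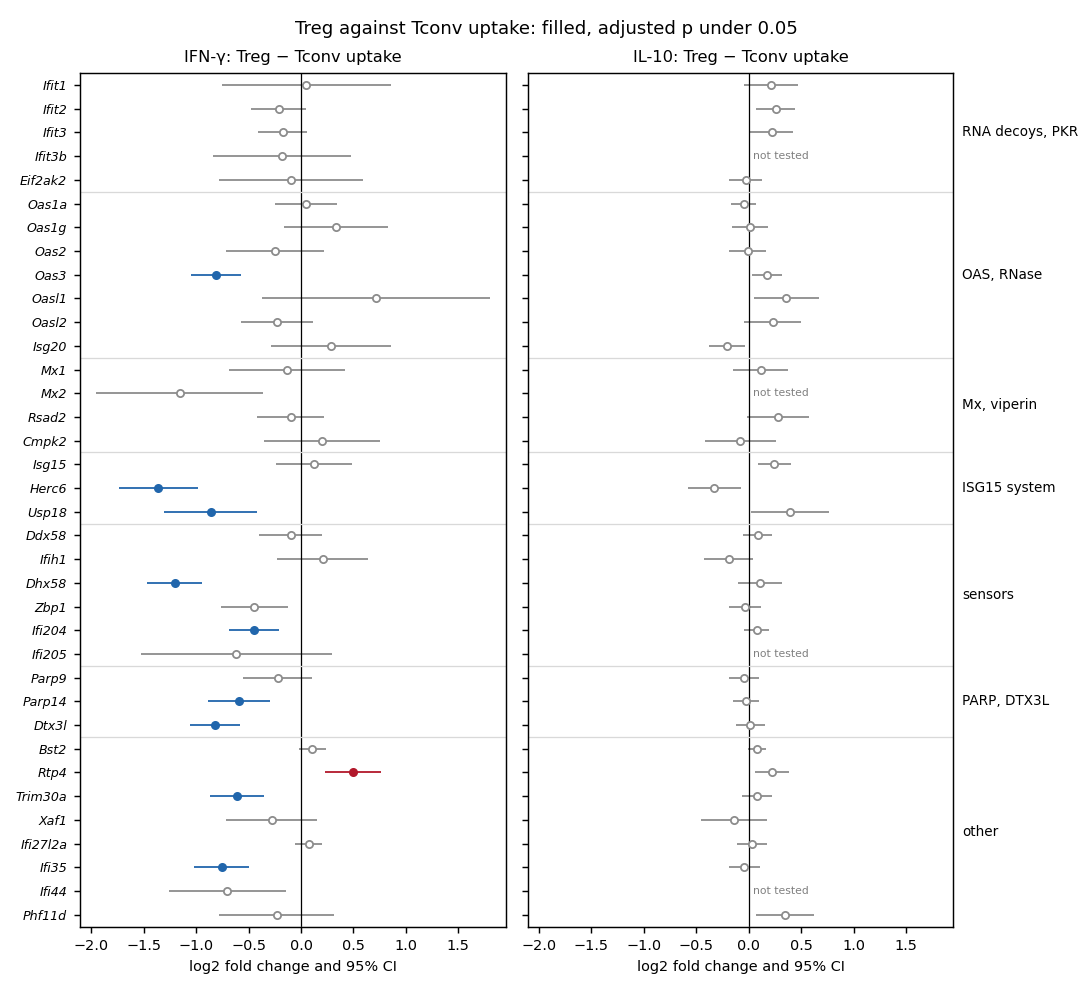
Log2 differences between Treg-phagocytic and Tconv-phagocytic macrophages for the members, under IFN-γ and under IL-10, as points with 95% confidence intervals (4 libraries against 4). Filled points have a limma adjusted p under 0.05; with IFN-γ 9 are filled blue (lower) and 1 red (higher), and with IL-10 none of the 32 points is filled.

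Against IL-10 non-phagocytic macrophages, 5 of 32 members were higher after Treg uptake and none was lower, and 12.9% of 11885 genes were called (7.9% higher and 5.04% lower). Rtp4 went from 11.2, 9.94, 12.5 and 10.5 TPM to 14.4, 13.7, 15.04 and 15.3 TPM, with a log2 difference of 0.46 (SE 0.08, adjusted p = 0.00462). Bst2 went from 348, 328, 322 and 332 TPM to 351, 394, 378 and 383 TPM, with 0.26 (SE 0.04, adjusted p = 0.00185). Both groups were separated in these 2 genes. Ifit3, Ifit2 and Ifi27l2a rose by 0.47, 0.31 and 0.21. Usp18, Rsad2, Mx1 and Isg15 did not pass, at 0.38, 0.39, 0.37 and 0.28, nor did Ifit1, Zbp1, Ddx58, Ifi204, Oas1a and Parp14, at 0.16, 0.16, 0.19, 0.13, -0.06 and 0.003, and Parp9 had the smallest uncalled difference, -0.001. The T cell marker sum was 182.3 to 193.6 TPM in the non-phagocytic and 295.4 to 322.0 TPM in the Treg-phagocytic libraries, with 16 of 16 markers called higher, and its part was not tested.

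The calls of Ifit2, Ifit3 and Ifi27l2a depended on single libraries. Leaving out 1 library gave 2 to 6 called members: 3 without non-phagocytic library 3 or without the Treg library BV421-1 or BV421-2, and 2 without non-phagocytic library 4. Ifit2 lost its call without any of the non-phagocytic libraries 1 to 4 (adjusted p = 0.0851, 0.0813, 0.0531 and 0.0953) or the Treg libraries Ax647-1, BV421-1 and BV421-2 (0.0816, 0.0636 and 0.0799). Ifi27l2a lost it without non-phagocytic library 3 or 4 or Treg library BV421-1 or BV421-2 (0.0777, 0.0719, 0.0701 and 0.0722), and Ifit3 without non-phagocytic library 4 or Treg library BV421-2 (0.0549 and 0.0512). With no scaling factor 3 members were higher and 1 lower, and the higher share of called genes went from 61.1% to 26.1%.

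After Tconv uptake under IL-10, Bst2 was the 1 called member, at 346, 373, 348 and 352 TPM and higher by 0.18 (SE 0.03, adjusted p = 0.00851) than in non-phagocytic macrophages, while 7.3% of 11883 genes were called (5.29% higher and 2.01% lower). The call of Bst2 was lost with no scaling factor, when the higher share of called genes went from 72.5% to 24.2%, and 7 of 16 T cell markers were called higher. Rtp4 and Ifi27l2a differed by 0.23 and 0.17, and Herc6 had the smallest difference, 0.01. The remaining fixed examples were uncalled, with Usp18 at -0.01, Isg15 at 0.03, Zbp1 at 0.20, Rsad2 at 0.11, Mx1 at 0.25, Ifit1 at -0.05, Oas1a at -0.02, Ddx58 at 0.11, Ifi204 at 0.06 and Parp14 at 0.03.

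Whether the difference by kind of T cell eaten was itself different between the cytokines was tested directly over 16 libraries. The difference between Treg-phagocytic and Tconv-phagocytic macrophages was lower under IFN-γ than under IL-10 for 11 members and higher for none, and 13.8% of 12918 genes were called (5.05% higher and 8.73% lower). Dhx58 had -1.31 (SE 0.15, adjusted p = 4.32e-05) on the log2 scale, Usp18 -1.25 (SE 0.27, adjusted p = 0.00567), Herc6 -1.03 (SE 0.21, adjusted p = 0.00323) and Oas3 -0.99 (SE 0.12, adjusted p = 5.06e-05). Dtx3l, Ifi35, Trim30a, Parp14 and Ifi204 followed with -0.83, -0.72, -0.69, -0.57 and -0.52. Mx2, at -1.50 (adjusted p = 0.0305), and Ifit2, at -0.47 (adjusted p = 0.0319), were the 2 members called here and not within IFN-γ. Of these groups, Mx2 reached 1 TPM in all libraries only in the IFN-γ Tconv-phagocytic one, through which it passed the filter. It was at 0.48 to 1.06 TPM in IFN-γ Treg-phagocytic, 0.45 to 0.96 TPM in IL-10 Tconv-phagocytic and 0.52 to 2.2 TPM in IL-10 Treg-phagocytic libraries. Its call is thus no separate support. Mx2 moved to -1.15 (adjusted p = 0.0368) without the Tconv library BV421-2, in which it stood far above the others. Its call was lost without the IFN-γ Treg library BV421-1 (adjusted p = 0.0526), the IL-10 Tconv library BV421-1, Ax647-1 or Ax647-2 (0.0645, 0.0539 and 0.0597) or the IL-10 Treg library Ax647-1 or BV421-2 (0.06 and 0.0707). The call of Ifit2 was lost without the IFN-γ Tconv library BV421-2 or Ax647-2 (0.0657 and 0.0508), the IL-10 Tconv library BV421-1, BV421-2 or Ax647-1 (0.0581, 0.0665 and 0.0656) or the IL-10 Treg library Ax647-1 or BV421-2 (0.0707 and 0.0594). The higher share of called genes was 36.6%, and 19.2% with no scaling and 49.3% with scaling over all genes above 0.

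For Treg-phagocytic against non-phagocytic macrophages, the difference between the cytokines was lower under IFN-γ for 12 members, and 9.63% of 12872 genes were called (2.34% higher and 7.29% lower). Dhx58, Usp18 and Herc6 led with -1.34 (SE 0.13, adjusted p = 1.13e-05), -1.21 (SE 0.28, adjusted p = 0.0111) and -0.96 (SE 0.22, adjusted p = 0.0112). Dtx3l, Ifi35, Oas3, Zbp1, Trim30a, Ifit3, Ifit2, Ifi204 and Ifi27l2a had -0.73, -0.72, -0.72, -0.68, -0.55, -0.53, -0.51, -0.48 and -0.29. Without the IL-10 Treg library BV421-2 the count was 7, the lowest of the 16 leave-one-out fits, and it was 8 without IFN-γ non-phagocytic library 2 or IL-10 non-phagocytic library 4, which were the other two that moved it by at least 1.5 times. Of the 12 members, 5 kept their call under every alternative run other than the required absolute log2 difference of at least 1, under which 2 members were called, and Zbp1 and Ifi27l2a each lost theirs in 12 of the 16 leave-one-out fits (adjusted p up to 0.108 and 0.0935). Ifit3 lost its call in 8 of them (up to 0.0817), Ifit2 in 6 (up to 0.065) and Ifi204 without the IL-10 Treg library BV421-2 (0.0537). The higher share of called genes was 24.3%, and 35.6%, 36.2% and 42.4% with no scaling, with median-of-ratios scaling and with scaling over all genes above 0.

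For Tconv-phagocytic against non-phagocytic macrophages, Rtp4, Ifi27l2a and Bst2 had a lower difference under IFN-γ than under IL-10, at -0.61 (SE 0.13, adjusted p = 0.0237), -0.33 (SE 0.08, adjusted p = 0.0393) and -0.26 (SE 0.06, adjusted p = 0.0489), and 1.82% of 13075 genes were called (0.229% higher and 1.59% lower). With no scaling factor 1 member was higher and none lower, the median of all genes moved from -0.01 to 0.11 and the higher share of called genes from 12.6% to 64.5%. Leave-one-out fits called 0 to 3 members, and Bst2 lost its call in 14 of 16 (adjusted p up to 0.118), Ifi27l2a in 12 (up to 0.0995) and Rtp4 in 5 (up to 0.0643). No member was called without the IFN-γ Tconv library Ax647-1, IL-10 non-phagocytic library 2 or 4, or the IL-10 Tconv library BV421-2 or Ax647-1, and 1 was called without IFN-γ non-phagocytic library 2 or 4, the IFN-γ Tconv library BV421-2 or Ax647-2, IL-10 non-phagocytic library 3 or the IL-10 Tconv library BV421-1.

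The upstream genes of the pathway were examined in the same fits. Of 19 genes for type I and type III interferons, none reached 1 TPM in any library; Ifnb1 was listed at 0 in all libraries but IL-10 Treg-phagocytic BV421-2, where it was at 0.57 TPM. Ifng was at 0.31, 4.34, 1.07 and 1.6 TPM in IFN-γ Tconv-phagocytic and 0, 0, 1.07 and 0.79 TPM in IFN-γ Treg-phagocytic libraries, and the difference did not pass (adjusted p = 0.285). Both receptor chains were expressed, Ifnar1 at 40.7 ± 1.32 TPM and Ifnar2 at 189.96 ± 8.16 TPM in M0 (SD, n = 4).

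Of the receptor and JAK-STAT genes described here, Stat2 was at 29.8, 34.3, 35 and 33.6 TPM in M0 and at 69.2, 80.5, 60.4 and 66.5 TPM with IFN-γ, a log2 difference of 1.30 (SE 0.10, adjusted p = 3.73e-06). Irf9, Ifnar1 and Ifnar2 rose by 0.40, 0.33 and 0.51. Jak1, the kinase of both receptors' signalling, fell (-0.37 on the log2 scale, named after its values were seen). All 4 IFN-γ libraries of Stat2 were above all 4 M0 libraries. With IL-10 over M0 Ifnar1, Ifnar2, Irf9 and Stat2 were called higher, with Ifnar1 at 0.54, Ifnar2 at 0.34, Irf9 at 0.22 and Stat2 at 0.21.

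In IFN-γ macrophages that took up Treg rather than Tconv cells, Stat2 and the kinase gene Tyk2 fell; Tyk2 was singled out after its values were seen. Stat2, a subunit of ISGF3, went from 63.97, 77.99, 92.1 and 73.2 TPM to 18.7, 26.2, 21.7 and 25.5 TPM (log2 difference -1.61, SE 0.14, adjusted p = 0.000235). As deposited, its Treg-phagocytic libraries were below all M0 libraries. The mean log2 scaling factor was -0.179 in IFN-γ Treg-phagocytic and 0.131 in M0 libraries, and as scaled TPM the 2 groups overlapped. Tyk2 differed by -1.16 (SE 0.10, adjusted p = 0.000189). Irf9, at 21.9, 24.1, 22.5 and 23.7 TPM and 26.6, 19.7, 34.6 and 25.9 TPM, did not pass (log2 difference 0.27, adjusted p = 0.275), nor did Ifnar1 and Ifnar2, at -0.14 and 0.06.

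Irf7, the regulator that amplifies interferon production and is itself an interferon target, rose with IFN-γ from 32.4, 26.8, 26.7 and 23.9 TPM to 124, 123, 99.2 and 109 TPM (log2 difference 2.28, SE 0.10, adjusted p = 1.57e-07). It was at 94.1, 119, 110.02 and 114 TPM after Tconv and at a mean of 99.9 ± 11.9 TPM (SD, n = 4) after Treg uptake, with a difference of -0.04 (SE 0.11) that did not pass. Against IFN-γ non-phagocytic macrophages, Stat2 and Tyk2 also fell after Treg uptake, by 1.52 and 1.15 on the log2 scale. Under IL-10 neither gene passed between Treg and Tconv uptake by limma at an adjusted p under 0.05.

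The other lists moved as follows. Among all genes tested, 27.7% rose and 29.6% fell for IFN-γ over M0, and 15.9% and 14.8% for IL-10 over M0. For Treg against Tconv uptake under IFN-γ, 4.68% of all genes rose and 9.02% fell. Of the 2 ISGylation enzyme genes, Uba7 and Ube2l6 both rose with IFN-γ over M0, and Uba7, the enzyme that activates ISG15, fell after Treg against Tconv uptake (log2 difference -0.89, adjusted p = 0.00489), while Ube2l6 had 0.10; both were named after their values were seen. Of 42 further interferon-stimulated genes, 36 were tested for IFN-γ over M0 and 20 rose and 5 fell; 34 were tested for IL-10 over M0 and 3 rose and 6 fell. For Treg against Tconv uptake under IFN-γ, 37 of them were tested, and 1 rose and 8 fell. Of 11 genes known as direct GAS targets of IFN-γ, 9 were tested for IFN-γ over M0, where 8 rose and 1 fell, and 9 for Treg against Tconv uptake under IFN-γ, where 4 fell and none rose. For IL-10 over M0, 7 were tested and all 7 rose. Ciita, the master regulator of MHC class II genes and a member of that list, fell for Treg against Tconv uptake under IFN-γ (log2 difference -1.30, limma adjusted p = 0.00633).

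Some of these levels are uncertain because reads can be shared between genes. The share of 50-base stretches of the transcripts also found in another gene was 51.2% in Ifit3 and 45.0% in Ifit3b, 57.6% in Oas1a and 45.7% in Oas1g, 20% in Ifi204 and 18.6% in Ifi205, 12.5% in Herc6 and 11.6% in Rtp4. Herc6 shares its stretches with Gm45193 on the same strand, whose mean was 4.23 TPM in IFN-γ non-phagocytic, 2.33 TPM in Tconv-phagocytic and 0.89 TPM in Treg-phagocytic macrophages, and its part in the Herc6 difference was not tested. Dtx3l and Parp9 overlap on opposite strands, and whether strand was used in counting is not given in the sources used here. Mx2 is annotated as a polymorphic pseudogene.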

How the data were processed

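Per the labels' protocols, poly(A) RNA was extracted with RNAiso Plus and sequenced from directional NEBNext Ultra II libraries. The submitters' processing notes name STAR, RSEM and mm10, with no versions. The deposited values are TPM per Ensembl gene, with 2 decimals. The files give no read counts, so the precision is shown by the spread of the 4 libraries of a group. Symbols were matched for 55141 of 55487 identifiers. Of 378 pairs of libraries, 0 had identical values, and no library was left out. Library names and titles disagree on the antibody dye for the 8 Treg-phagocytic libraries, which are named here by title.

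The tests used limma 3.58.1 (R 4.3.3, lmFit and eBayes with trend) on log2(TPM / scaling factor + 1), on the compared groups alone, for genes of at least 1 TPM in 4 libraries, with Benjamini-Hochberg adjustment over all of them. The scaling factor was a trimmed mean of log2 ratios (30% of ratios and 5% of levels trimmed at each end) over 13631 genes. The fits were tested on simulated data. Printed TPM are unscaled. Named in each comparison were 12 fixed examples, the 3 largest rises and falls and the smallest uncalled difference. The members and lists were chosen with earlier results of these data known. One gene of the pathway is not reported here.

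Alternatives covered scaling, pseudocount, filter, model, dye, replicate block and leaving out each library. A correction for GC content and transcript length, and scaling over all genes above 0, were added after seeing the data.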

Additional observations from a re-analysis of the deposited data

Results flagged for a closer look

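Single libraries stood apart from the other three of their group in 14 of 242 groups of 4 values tested by Dixon's gap criterion. Chance alone gives about 1 in 20. In M0, Oas1g was at 10.45 TPM in library 2 (the others 13.51 to 13.88), Oasl1 at 1.64 TPM in library 4 (2.05 to 2.09) and Mx2 at 1.57 TPM in library 3 (0.75 to 0.86). In IFN-γ non-phagocytic macrophages, Ifih1 was at 10.58 TPM in library 4 (8.84 to 9.04). Among IFN-γ Tconv-phagocytic libraries, Mx2 was at 7.2 TPM in BV421-2 (1.68 to 2.51) and Rsad2 at 17.67 TPM in Ax647-2 (13.72 to 14.05). The IFN-γ Treg-phagocytic library Ax647-2 was high for Mx1, at 6.7 TPM (3.69 to 4.19), and for Usp18, at 12.94 TPM (7.33 to 8.22). In IL-10 non-phagocytic macrophages, Oasl2 was at 14.46 TPM in library 1 (17.34 to 17.85), Rsad2 at 3.87 TPM in library 4 (4.93 to 5.13) and Parp14 at 22.46 TPM in library 2 (21.53 to 21.59). In IL-10 Tconv-phagocytic macrophages, Isg15 was at 33.26 TPM in BV421-2 (28.09 to 28.79) and Ddx58 at 15.83 TPM in Ax647-1 (13.66 to 13.87). Parp14 was at 22.68 TPM in the IL-10 Treg-phagocytic library BV421-2 (19.85 to 20.19).

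The differences between uptake groups were unlike between the cytokines for 26 values by the test of the difference itself. Of all genes tested, 13.8%, 9.63% and 1.82% were called in the comparisons below, in their order. These comparisons share libraries, so their lists are not separate results. For Treg against Tconv uptake, IFN-γ minus IL-10, these were Mx2 -1.50, Dhx58 -1.31, Usp18 -1.25, Herc6 -1.03, Oas3 -0.99, Dtx3l -0.83, Ifi35 -0.72, Trim30a -0.69, Parp14 -0.57, Ifi204 -0.52 and Ifit2 -0.47 on the log2 scale. For Treg-phagocytic against non-phagocytic macrophages they were Dhx58 -1.34, Usp18 -1.21, Herc6 -0.96, Dtx3l -0.73, Ifi35 -0.72, Oas3 -0.72, Zbp1 -0.68, Trim30a -0.55, Ifit3 -0.53, Ifit2 -0.51, Ifi204 -0.48 and Ifi27l2a -0.29. For Tconv-phagocytic against non-phagocytic macrophages they were Rtp4 -0.61, Ifi27l2a -0.33 and Bst2 -0.26. As given above, several of these calls depended on single libraries, Bst2 most often, and the call of Mx2 is no separate support.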

How the results depend on the processing

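Counts are of called members in both directions. They are given without the share of all genes called under the same setting, which also moved, so a change in them is not particular to the members. For IFN-γ Treg against Tconv uptake, for example, 1642 genes were called, and 881 to 1509 when 1 library was left out. With a required absolute log2 difference of at least 1 they were 20 for IFN-γ against M0, 0 for IL-10 against M0, 2 for IFN-γ Treg against Tconv uptake, 2 for IFN-γ Treg-phagocytic against non-phagocytic, 0 for both IL-10 comparisons with non-phagocytic cells, and 4, 2 and 0 for the differences between cytokines in Treg against Tconv, Treg against non-phagocytic and Tconv against non-phagocytic macrophages. With phagocytic libraries of 1 title dye (BV421, then Ax647) they were 0 and 1 for IFN-γ Treg against Tconv uptake, 3 and 3 for IFN-γ Treg against non-phagocytic and 0 and 0 for IL-10 Tconv against non-phagocytic; Ax647 gave 1 for IL-10 Treg against non-phagocytic. One model of all 28 libraries gave 12 for IFN-γ Treg and 1 for IFN-γ Tconv against non-phagocytic, 0 for IL-10 Tconv against non-phagocytic and 1 for the Tconv difference between cytokines. A variance weight per group gave 1 for IL-10 Treg against Tconv, 11 for IL-10 Treg and 2 for IL-10 Tconv against non-phagocytic and 0 for the Tconv difference. No filter gave 2 for IL-10 Treg against non-phagocytic and 1 for the Tconv difference; no scaling gave 0 for IL-10 Tconv against non-phagocytic and 1 for the Tconv difference. The GC and length correction gave 0 for IL-10 Tconv against non-phagocytic, 6 for the Treg against non-phagocytic difference and 1 for the Tconv difference. The cause was not tested. Leaving out 1 library gave 28 to 31 for IFN-γ against M0, 14 to 17 for IL-10 against M0, 27 to 30 for IFN-γ against IL-10, 7 to 11 for IFN-γ Treg against Tconv, 5 to 6 for IFN-γ Treg against non-phagocytic, 0 to 0 for IFN-γ Tconv against non-phagocytic and for IL-10 Treg against Tconv, 2 to 6 and 1 to 1 for IL-10 Treg and Tconv against non-phagocytic, and 9 to 13, 7 to 13 and 0 to 3 for the differences. Of the values of single members, 8931 kept their side of the threshold and, where called, their direction, 255 lost a call, 70 gained one and 1 called value reversed, Ddx58 with IFN-γ against M0 at -0.048 without scaling. Depth is unknown, which limits what can be said of members near 1 TPM.

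Whether the replicate numbers pair the samples is not settled by the labels. Same-numbered libraries of IFN-γ Treg and Tconv uptake correlated at -0.067 to 0.041 by title and at 0.027 to 0.05 by library name. By library name 4 of 4 correlated best with their own number, a hint from the data only. With the replicate block by title 9 members were called there, all lower, with Rtp4 and Parp14 at an adjusted p of 0.0611 and 0.0542, and by library name 11, with 1 higher and 10 lower. The block by file number gave 2 for IL-10 Treg against non-phagocytic macrophages. Among all genes, IFN-γ Treg against Tconv uptake had 1642 calls, 1147 and 1290 with these blocks, and 4035 with all 28 libraries in 1 model.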
